A study of Mus musculus with 6 samples.

Results

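Aminoacyl tRNA synthetases join each amino acid to its matching tRNA, and the transcripts of 35 of these enzymes were followed through 6 arrays of sorted mouse hematopoietic stem cells. The 35 genes were those whose gene symbol in the array annotation is an amino acid letter followed by ars or prs, with an optional final 1, 2, a or b, among 18193 genes with a probe set of their own. Of them, 19 encode cytosolic enzymes and 16, with symbols ending in 2, encode mitochondrial enzymes. They were measured by 72 probe sets, and the probe set with the brightest mean deposited intensity stood for each gene. The label of the group held for all 35 symbols, which matched RefSeq genes. The cytosolic and mitochondrial enzymes for aspartate were not analysed here.

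The cells came from mouse bone marrow and were sorted as GFP+ Lin- c-Kit+ Sca-1+. The vector group held cells transduced with an empty GFP vector, the BCR/ABL group held cells transduced with BCR/ABL, the fusion kinase that drives chronic myeloid leukemia (CML), from mice without treatment, and the BCR/ABL imatinib group held BCR/ABL cells from mice given imatinib, an inhibitor of the ABL kinase. All 3 groups thus passed through transduction and the same sort, and each had 2 arrays. The series' text speaks of CML mice without saying what the mice of the vector group were. The labels give no strain, age, dose or duration, and do not say whether the arrays came from separate mice, so p-values cover the spread among these arrays alone, and that spread may be technical. RNA of sorted cells was measured in bulk, so fewer cells of a type and less RNA per cell cannot be told apart.

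Each synthetase activates its amino acid with ATP and transfers it to the tRNA that carries the matching anticodon, which is the step that enforces the genetic code. Class I and class II enzymes are built on unrelated catalytic folds. Mitochondria translate their own genome with a separate set of synthetases that is encoded in the nucleus, and Gars (glycine) and Kars (lysine) serve both compartments from a single gene. In the cytosol several enzymes are bound in the multisynthetase complex on the scaffold proteins Aimp1, Aimp2 and Eef1e1. Uncharged tRNA activates the kinase GCN2, which raises the transcription factor ATF4, and ATF4 binds C/EBP-ATF response elements near genes of amino acid supply, several cytosolic synthetases among them.

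Because of that link, the promoters were searched for the core TGATGNAAN of such elements and for the E-box CACGTG, a site bound by MYC and MAX among other factors. Both strands were searched in windows of 250 bases before to 50 bases after the start site, taken from RefSeq on mouse assembly GRCm38.p6. Of the 35 genes, 26 had a window, 12 cytosolic and 14 mitochondrial. TGATGNAAN was present in 5 of the 12 cytosolic windows (41.7%), in 0 of the 14 mitochondrial windows and in 1215 of 27025 genes with a window (4.5%). CACGTG was present in 4 of the 12 cytosolic windows (33.3%), in 1 of the 14 mitochondrial windows (7.14%), that of Ears2, and in 2187 of the 27025 genes (8.09%). The cytosolic genes with CACGTG were Aars, Farsb, Iars and Tars. The 5 cytosolic promoters with TGATGNAAN are shown with those of Qars and Mars1, which hold neither motif and which were chosen after their values were seen, as the enzymes with the highest and the lowest change under imatinib within the multisynthetase complex. Each line gives 150 bases before and 30 bases from the start site, 5′ to 3′ on the gene's strand, in lower case, with matches to TGATGNAAN or its reverse complement and to CACGTG in capitals.
Aars, chr8:111033692-111033871, plus strand: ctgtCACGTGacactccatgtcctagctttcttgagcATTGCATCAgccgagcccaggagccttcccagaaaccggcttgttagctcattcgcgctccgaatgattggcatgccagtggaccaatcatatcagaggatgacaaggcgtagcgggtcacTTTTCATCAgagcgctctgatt
Gars, chr6:55037851-55038030, plus strand: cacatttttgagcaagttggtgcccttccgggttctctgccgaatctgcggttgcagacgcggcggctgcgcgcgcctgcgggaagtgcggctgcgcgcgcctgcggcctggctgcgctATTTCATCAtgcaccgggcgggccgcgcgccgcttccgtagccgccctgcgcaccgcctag
Iars, chr13:49681980-49682159, plus strand: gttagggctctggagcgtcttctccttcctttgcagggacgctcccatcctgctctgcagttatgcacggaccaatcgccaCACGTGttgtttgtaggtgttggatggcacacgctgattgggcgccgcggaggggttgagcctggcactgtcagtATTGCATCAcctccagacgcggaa
Tars, chr15:11399629-11399808, minus strand: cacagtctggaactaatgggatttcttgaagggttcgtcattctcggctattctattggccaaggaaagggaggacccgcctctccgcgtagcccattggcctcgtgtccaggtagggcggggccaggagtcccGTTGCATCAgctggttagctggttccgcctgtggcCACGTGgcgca
Yars, chr4:129189753-129189932, plus strand: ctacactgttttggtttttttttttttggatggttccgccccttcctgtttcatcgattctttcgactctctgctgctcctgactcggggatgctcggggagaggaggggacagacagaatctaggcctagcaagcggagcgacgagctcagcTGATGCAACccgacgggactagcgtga
Qars, chr9:108507855-108508034, plus strand: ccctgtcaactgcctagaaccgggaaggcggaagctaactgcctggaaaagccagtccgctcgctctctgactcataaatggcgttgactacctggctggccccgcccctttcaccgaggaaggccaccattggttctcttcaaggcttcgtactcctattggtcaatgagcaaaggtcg
Mars1, chr10:127311757-127311936, minus strand: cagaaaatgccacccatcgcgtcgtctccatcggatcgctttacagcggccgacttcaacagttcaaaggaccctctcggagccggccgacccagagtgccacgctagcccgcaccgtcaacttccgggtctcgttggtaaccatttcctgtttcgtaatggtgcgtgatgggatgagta
The start site of the table lies 6064 bases inside the annotated gene for Aars and 169 bases inside it for Yars, and at the first base of the gene for the other 5. A match is a description of letters and no evidence of binding.

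Array values were expressed as quantile normalized log2(intensity + 16), on which a difference of 1 is a doubling of value plus constant and dim genes are understated. The replicate arrays correlated over genes, which are not independent replicates, at 0.990 (BCR/ABL), 0.985 (imatinib) and 0.971 (vector). Of 10 markers of the sorted cells 8 were measured, with summed intensities between 17586 and 27227. In BCR/ABL 4 of them were lower than in vector (Kit and Flt3 at an unadjusted limma p under 0.05) and 4 higher (Gata2 and Cd48 likewise). Over all genes, 5.55% were lower and 7.16% higher at that p. With imatinib 7 of the 8 markers were higher than in BCR/ABL, against 8922 of 18193 genes. Kit, the receptor used in the sort, stood at 10.37 and 10.13 in BCR/ABL, 11.38 and 11.39 with imatinib, and 10.71 and 11.06 in vector. The summed intensity of the 7 measured of 8 B cell markers was 20976 and 4994 in vector, against 1423 to 3190 on the other 4 arrays. All 8 mast cell and basophil markers summed to 47894 and 56418 with imatinib, to 34974 and 35146 in BCR/ABL, and to 6600 and 11176 in vector. All 7 granulocyte markers summed to 30537 on vector array 2 and to between 54708 and 63695 on the other 5 arrays. The 3 measured of 4 T and NK cell markers summed to between 3893 and 5024, the 2 of 4 erythroid markers to between 509 and 1819, and the 3 of 4 macrophage markers to between 2247 and 4129. Nearly all of the T and NK sum was Nkg7 (3879 to 5010), and of the erythroid sum Klf1. The T cell genes Cd3e and Cd3g read at most 40.2, except for Cd3e at 198 on vector array 1. The B cell factor Pax5 and the globin Hba-a1 lay under an intensity of 16 on all 6 arrays. Ratios of 3′ to 5′ actin control probe sets were 1.30 and 1.48 in BCR/ABL, 1.55 and 1.74 with imatinib, and 1.62 and 1.81 in vector. The part of these cell type and RNA quality differences in the synthetase values was not tested.

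The first comparison, BCR/ABL imatinib against BCR/ABL, asks how the transcripts of BCR/ABL cells differ when the kinase inhibitor is given. Synthetase transcripts lay lower with imatinib for 34 of 35 enzymes, by a median of 0.56 (log2) for the 19 cytosolic and 0.39 for the 16 mitochondrial ones, while the median of all 18193 genes was a change of -0.01. None passed an adjusted p of 0.05 in limma over 35877 probe sets, of which 0 (0%) passed either. The smallest adjusted p of a synthetase was 0.108. With arrays centred on their medians instead, 14 synthetases passed along with 3.34% of all probe sets, and the medians were then -0.92 for the cytosolic enzymes, -0.63 for the mitochondrial ones and -0.27 for all genes. With the probe sets of each gene averaged, the cytosolic and mitochondrial medians were closer, at -0.57 and -0.52. The gap between compartments thus depended on the probe sets chosen. Tars passed when probe sets under the 30th percentile were left out, along with 0.565% of all probe sets tested there. Both Tars and Rars passed when those under the 50th were left out, along with 1.18% of probe sets. At an unadjusted limma p under 0.05, 22 synthetases were lower (16 cytosolic, 6 mitochondrial) and 0 higher, against 9.13% of all genes lower and 7.88% higher. The arrays of both groups did not overlap for 28 synthetases in the lower direction and for 1 in the higher one, against 26.7% and 24.8% of all genes.

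Tars, which charges threonine tRNA, had the largest difference of the cytosolic enzymes. Its log2 level was 11.25 and 11.20 in BCR/ABL, 10.25 and 10.14 with imatinib, and 10.44 and 10.58 in vector. The deposited intensities were 2469 and 2343 (BCR/ABL), 1201 and 1118 (imatinib), and 1356 and 1506 (vector). Both imatinib arrays thus lay below all 4 other arrays, and the BCR/ABL arrays lay above them. The change with imatinib was -1.03 (SE 0.12, n = 2 against 2, adjusted p = 0.108), which is 0.489 times the BCR/ABL level.

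Wars, the tryptophan enzyme, showed the same order of groups. It stood at 10.86 and 10.81 in BCR/ABL, 10.02 and 9.77 with imatinib, and 10.29 and 10.35 in vector. The change was -0.94 (SE 0.14, adjusted p = 0.108), and the 3 groups did not overlap. All 4 probe sets of Wars were lower with imatinib. Rars, the arginine enzyme and a member of the multisynthetase complex, read 11.98 and 12.00 in BCR/ABL, 11.45 and 11.40 with imatinib, and 11.74 and 11.83 in vector. Its change of -0.57 had a small error (SE 0.08, adjusted p = 0.108), and the imatinib arrays were again the lowest.

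Mars1 charges the initiator tRNA as well as the elongator tRNA of methionine. Levels were 11.28 and 11.43 in BCR/ABL, 10.59 and 10.72 with imatinib, and 11.13 and 11.09 in vector, a change of -0.70 with imatinib (SE 0.11, adjusted p = 0.112). The imatinib arrays were separated from both other groups. Farsb, the beta subunit of the phenylalanine enzyme, gave 11.67 and 11.73 in BCR/ABL, 11.04 on both imatinib arrays, and 11.61 and 11.37 in vector. Its change was -0.66 (SE 0.11, adjusted p = 0.120), and all 4 probe sets were lower. Lars, the leucine enzyme, which also acts as a leucine sensor for mTORC1, read 11.58 and 11.46 in BCR/ABL, 10.98 and 10.85 with imatinib, and 11.07 and 11.18 in vector. The change of -0.60 (SE 0.11, adjusted p = 0.121) brought Lars to just under the vector arrays.

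Qars, the glutamine enzyme, was the one synthetase with a higher value. It stood within a narrow range across the experiment, at 12.17 and 12.20 in BCR/ABL, 12.30 and 12.25 with imatinib, and 12.16 and 12.17 in vector. The change of 0.09 (SE 0.07, adjusted p = 0.656) did not pass the test, and it was -0.29 when arrays were centred on their medians instead. Its other 3 probe sets, with mean deposited intensities of 3140, 360 and 5.31, showed -0.00, 0.51 and 0.22. The dimmest of them lay under the added constant of 16.

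The other cytosolic enzymes had changes from -0.94 to -0.35. Cars (cysteine) was at -0.94 but with a wide error (SE 0.38, adjusted p = 0.343), with levels of 7.46 and 7.48 under imatinib beside 8.60 and 8.21 in BCR/ABL. Yars (tyrosine) was at -0.80, Aars (alanine) at -0.77, Gars at -0.56, Iars (isoleucine) at -0.55 and Vars (valine) at -0.53. Eprs, a fused enzyme for glutamate and proline, was at -0.49, Kars at -0.48 and Farsa, the alpha subunit for phenylalanine, at -0.46. Sars (serine) was at -0.42, Nars (asparagine) at -0.38 and Hars (histidine) at -0.35. For each of these 12 the BCR/ABL and imatinib arrays did not overlap. Probe sets disagreed for Farsa: the bright one, with a mean deposited intensity of 1733, was lower, and the other 3, with means of 60.1, 151 and 166, differed by 0.35, 0.77 and 0.60 in the higher direction.

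**Figure D1:**
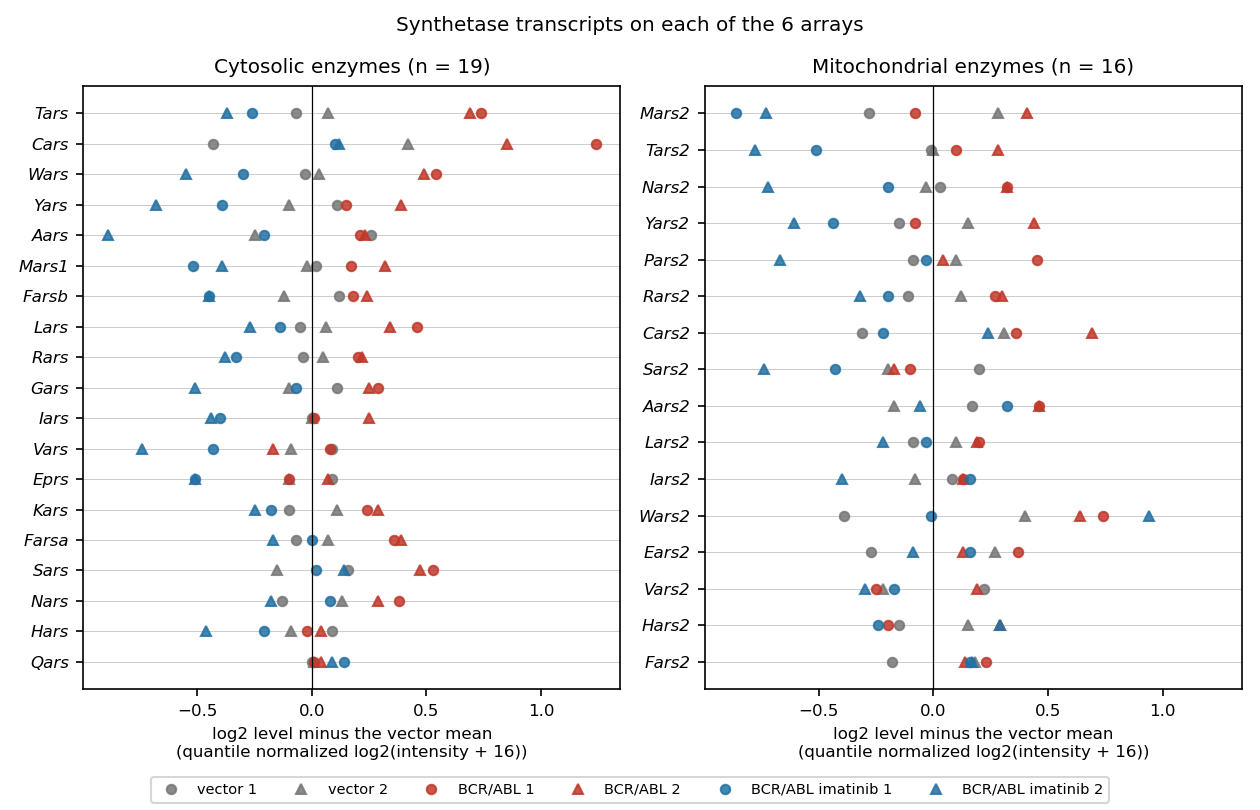
Log2 level of each synthetase on each of the 6 arrays minus the mean of its vector arrays (horizontal axis, log2 units), cytosolic enzymes on the left and mitochondrial on the right, ordered by the change with imatinib. Red BCR/ABL points of Tars and Wars lie to the right of both other groups and blue imatinib points to the left, and the points of Qars fall nearly together.

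Among mitochondrial enzymes, Tars2, which charges threonine tRNA for mitochondrial translation, had the smallest p. Its level was 9.37 and 9.55 in BCR/ABL, 8.76 and 8.49 with imatinib, and 9.26 and 9.27 in vector. The change was -0.83 (SE 0.19, adjusted p = 0.152), and the imatinib arrays lay below the other 4. The other Tars2 probe set, with a mean deposited intensity of 455 against 557, was at -0.31. With both averaged the change was -0.57. Rars2, the mitochondrial arginine enzyme, read 10.46 and 10.49 in BCR/ABL, 9.99 and 9.87 with imatinib, and 10.08 and 10.31 in vector. That is a change of -0.55 (SE 0.14, adjusted p = 0.178) with imatinib arrays just under the vector arrays.

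Yars2, for tyrosine, differed between the BCR/ABL arrays themselves, at 10.07 and 10.59, against 9.71 and 9.54 with imatinib and 10.00 and 10.30 in vector. Its change was -0.71 (SE 0.22, adjusted p = 0.234), without overlap, and -0.44 without BCR/ABL array 2. Nars2, for asparagine, stood at 8.70 on both BCR/ABL arrays, 8.18 and 7.66 with imatinib, and 8.41 and 8.35 in vector, a change of -0.78 (SE 0.27, adjusted p = 0.267). The imatinib arrays of Nars2 differed from each other by more than those of Tars2, and both were below the rest.

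The remaining 12 mitochondrial enzymes had changes from -0.96 to -0.02. Mars2 (methionine) was at -0.96, with levels of 7.10 and 7.23 under imatinib beside 7.88 and 8.37 in BCR/ABL (SE 0.35, adjusted p = 0.289). Pars2 (proline) was at -0.60, Cars2 at -0.51, Sars2 at -0.45, Aars2 at -0.33 and Lars2 at -0.32. Iars2 was at -0.25, Wars2 at -0.23, and Ears2 (glutamate) and Vars2 both at -0.21. Hars2 and Fars2 were both at -0.02. The other Hars2 probe set (mean deposited intensity 179 against 354) was at -0.37, and the other Fars2 probe set (528 against 566) at -0.33. BCR/ABL and imatinib arrays overlapped for Ears2, Fars2, Hars2, Iars2, Vars2 and Wars2. The mitochondrial enzymes were measured less precisely, with a median SE of 0.29 against 0.12 for the cytosolic ones and 0.21 for all genes.

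Both catalytic classes were lower with imatinib. Cytosolic class I enzymes were lower for 9 of 10 with a median change of -0.58, and cytosolic class II enzymes for 9 of 9 with a median of -0.48. Mitochondrial class I enzymes were lower for 9 of 9 (median -0.32) and class II for 7 of 7 (median -0.45). Of 7 measured enzymes of the multisynthetase complex (Eprs, Iars, Kars, Lars, Mars1, Qars and Rars), 6 were lower and 1 higher, with a median of -0.55. The 12 cytosolic enzymes outside the complex were all lower, with a median of -0.61. These medians stand beside -0.01 for all genes, and 0 members of any of these groups passed the adjusted test.

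The 5 enzymes with TGATGNAAN in the printed promoters had changes of -1.03 (Tars), -0.80 (Yars), -0.77 (Aars), -0.56 (Gars) and -0.55 (Iars). Mars1, without either motif in its window, was at -0.70, and Qars, also without, at 0.09. Mars1 and Qars were picked by their values, and the other promoters without TGATGNAAN were not compared with the 5. Whether genes with and without a match differ in their changes was thus not tested.

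For 13 amino acids 1 cytosolic gene and 1 mitochondrial gene could be paired. Phenylalanine (Farsa, Farsb and Fars2), glutamate (Eprs and Ears2) and proline (Eprs and Pars2) also had both but were not paired. With imatinib the cytosolic enzyme had the lower change in 10 pairs and the mitochondrial one in 3, which were methionine (Mars1 -0.70, Mars2 -0.96), asparagine (Nars -0.38, Nars2 -0.78) and serine (Sars -0.42, Sars2 -0.45). Arginine enzymes were alike, at -0.57 for Rars and -0.55 for Rars2. The largest gap was for tryptophan, with -0.94 for Wars and -0.23 for Wars2, whose imatinib arrays read 6.48 and 7.43. That gap rests on 1 dim probe set of Wars2 (mean deposited intensity 107), and the other, of nearly the same brightness, was at -0.63. For valine, the other Vars2 probe set (mean deposited intensity 147 against 185) was at -0.92, lower than Vars. The count of pairs thus depends on the probe sets chosen. No test was made of the pairs.

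**Figure D2:**
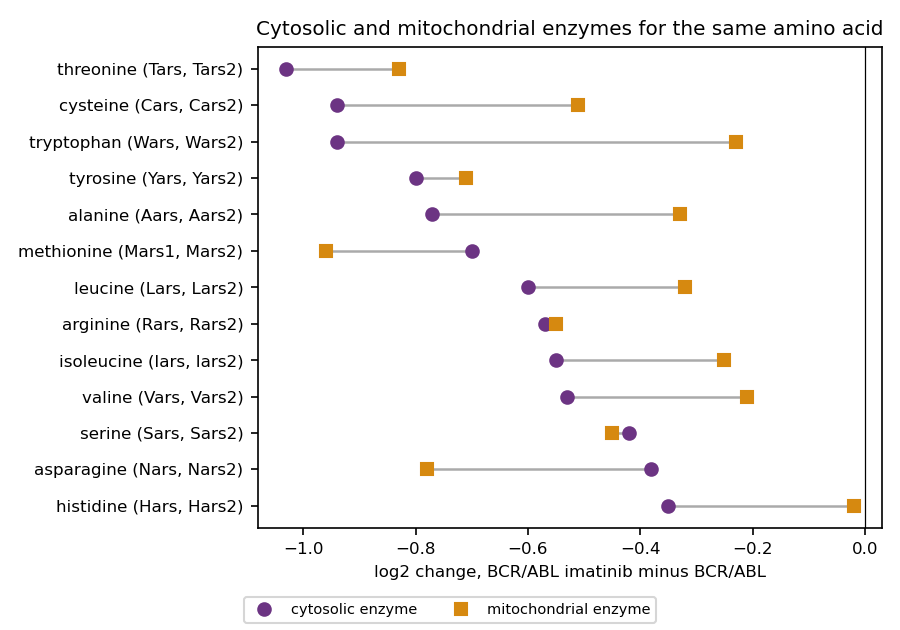
Log2 change of BCR/ABL imatinib minus BCR/ABL for the cytosolic (purple circle) and mitochondrial (orange square) enzyme of the 13 paired amino acids, joined by a line. The purple circle lies to the left in 10 pairs, and the orange square in those of methionine, asparagine and serine.

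Over all probe sets of the 35 genes, 65 of 72 were lower with imatinib, with a median change of -0.50. Among the 59 with a mean deposited intensity of 100 or more, 55 were lower, and of the 13 dimmer ones 10 were lower. Among the 23 genes with several probe sets, all had the direction of the brightest one in 20, and the exceptions were Eprs, Farsa and Qars. Seen as a distribution, 63.16% of cytosolic and 43.75% of mitochondrial enzymes had a change of -0.5 or lower, against 10.37% of all genes.

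**Figure D3:**
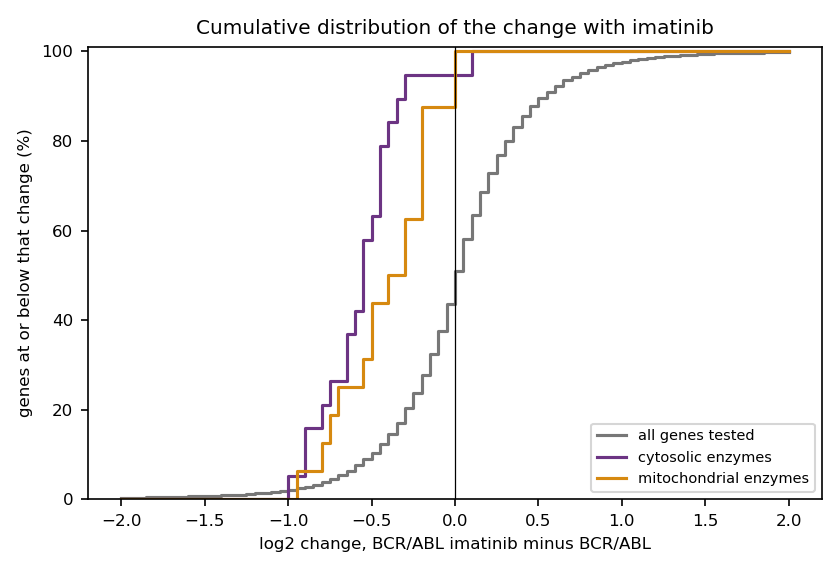
Cumulative percentage of genes (vertical axis) with a log2 change of BCR/ABL imatinib minus BCR/ABL at or below the value on the horizontal axis, for cytosolic synthetases, mitochondrial synthetases and all 18193 genes. At -0.5 the curves stand at 63.16%, 43.75% and 10.37%.

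The second comparison, BCR/ABL against vector, asks how BCR/ABL itself relates to the same transcripts. It shares the BCR/ABL arrays with the first, so the directions of both are not independent. Synthetase transcripts lay higher in BCR/ABL for 31 of 35 enzymes, with a median change of 0.26 for the cytosolic and 0.19 for the mitochondrial ones, beside 0.01 for all genes. None passed an adjusted limma p of 0.05, which 22 of 35877 probe sets (0.0613%) did. At an unadjusted limma p under 0.05, 9 synthetases were higher, all cytosolic, and 0 lower, against 7.16% and 5.55% of all genes. Groups did not overlap for 22 synthetases in the higher direction (14 cytosolic, 8 mitochondrial) and for 0 in the lower one, against 23.9% and 20.1% of genes. The mitochondrial median was 0.31 without vector array 2 and 0.29 without BCR/ABL array 1. With arrays centred on their medians it was 0.40 and the cytosolic one 0.48, where the median of all genes was 0.20.

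Tars had the smallest p, with a change of 0.72 (SE 0.12, adjusted p = 0.155) from the levels given above. Wars followed with 0.52 (SE 0.14, adjusted p = 0.305). Sars, the serine enzyme, read 11.40 and 11.34 in BCR/ABL, 11.03 and 10.72 in vector, and 10.89 and 11.01 with imatinib. Its change of 0.50 (SE 0.14, adjusted p = 0.310) set the BCR/ABL arrays above all others, and the imatinib arrays overlapped those of vector. Lars differed by 0.40 (SE 0.11, adjusted p = 0.308).

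Farsa stood at 11.02 and 11.05 in BCR/ABL, 10.59 and 10.73 in vector, and 10.66 and 10.49 with imatinib. The difference from vector was 0.37 (SE 0.12, adjusted p = 0.358), but its 3 dimmer probe sets were lower in BCR/ABL, and the mean over its probe sets gave -0.30. Cars had the largest difference, 1.05 (SE 0.38, adjusted p = 0.401), with vector arrays at 6.93 and 7.78. It was 0.63 without vector array 1 and 0.52 with probe sets averaged, where Tars was at 0.65 and 0.72. The SD of those vector arrays was 0.60, so the size of the Cars difference is loosely fixed. Eprs (-0.01) and Vars (-0.04) were the cytosolic enzymes without a higher value, and both signs turned with another scaling or without 1 array.

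For the mitochondrial enzymes, Rars2 differed by 0.28 (SE 0.14, adjusted p = 0.517) and Lars2, for leucine, by 0.19, which became 0.16 and 0.10 without vector array 1. Lars2 levels were 10.98 and 10.97 in BCR/ABL, 10.69 and 10.88 in vector, and 10.75 and 10.56 with imatinib. Cars2, for cysteine, read 9.16 and 9.49 in BCR/ABL, 8.49 and 9.11 in vector, and 8.58 and 9.04 with imatinib, a difference from vector of 0.52 (SE 0.30) that was 0.22 without vector array 1 and 0.83 without vector array 2. Vector and imatinib arrays of Cars2 were intermixed below the BCR/ABL arrays. Aars2, for alanine, stood at 8.46 on both BCR/ABL arrays, 8.17 and 7.83 in vector, and 8.32 and 7.94 with imatinib, a difference of 0.46 (SE 0.28) that was 0.29 without vector array 2.

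Sars2 (7.69 and 7.62 in BCR/ABL, 7.99 and 7.59 in vector) and Vars2 (7.47 and 7.91 against 7.94 and 7.50) were the mitochondrial enzymes with lower values, at -0.14 and -0.03, and their groups overlapped. Wars2 had the largest mitochondrial difference, 0.69 (SE 0.49), with vector arrays at 6.10 and 6.89 and deposited intensities from 58.3 to 178 over the 6 arrays. The other Wars2 probe set, of nearly the same brightness, was at -0.03. Pairs of enzymes showed no preference for a compartment here, with the cytosolic enzyme lower in 6 pairs and the mitochondrial one in 7. By probe set, 55 of 72 were higher in BCR/ABL, and all probe sets of a gene had 1 direction in 12 of the 23 genes with several.

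**Figure D4:**
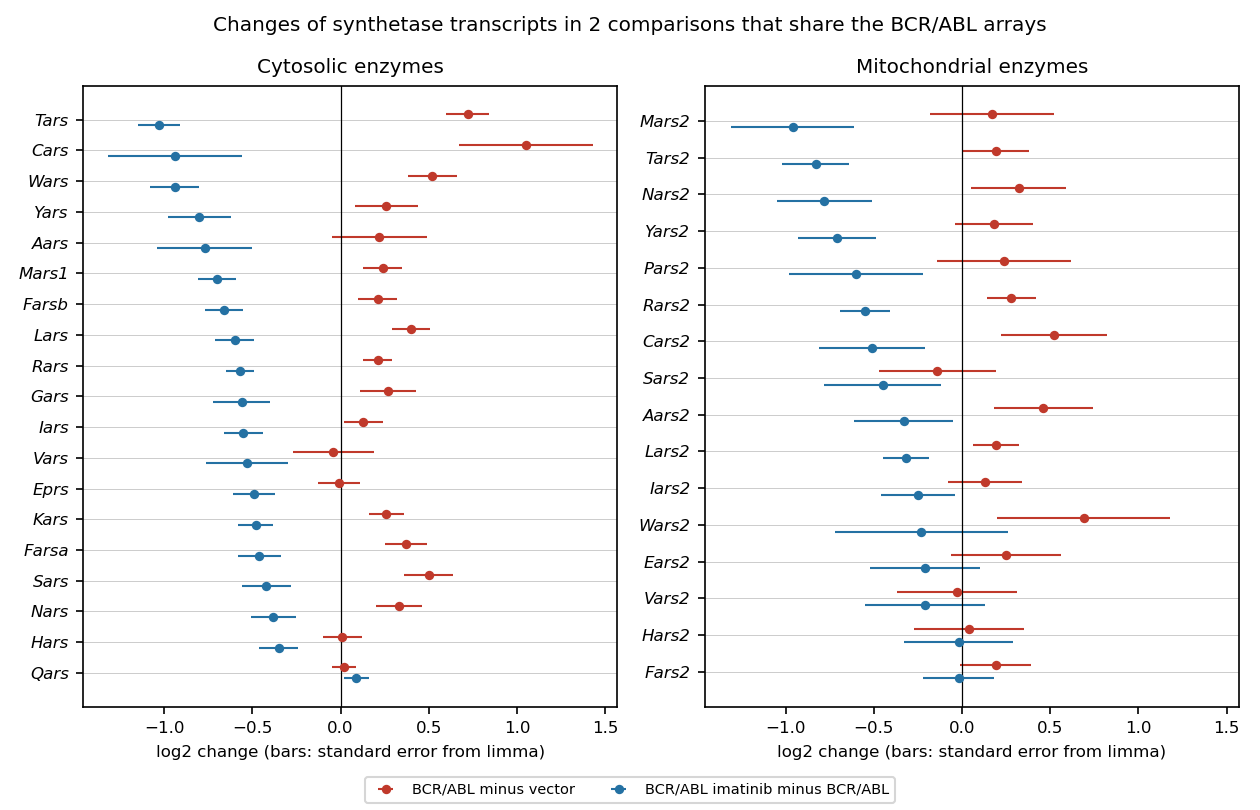
Log2 change (horizontal axis) with its limma standard error (bars) for each synthetase in BCR/ABL minus vector (red) and BCR/ABL imatinib minus BCR/ABL (blue), which share the BCR/ABL arrays. Blue points lie left of 0 for 34 of 35 enzymes and red points right of 0 for 31 of 35, with wider bars for the mitochondrial enzymes.

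The third comparison, BCR/ABL imatinib against vector, asks where the treated cells stand beside cells without BCR/ABL, and shares arrays with both others. Synthetase transcripts lay lower with imatinib for 26 of 35 enzymes, with a median change of -0.34 for the cytosolic and -0.18 for the mitochondrial ones beside -0.00 for all genes. None passed an adjusted limma p of 0.05, which 16 of 35877 probe sets (0.0446%) did. At an unadjusted limma p under 0.05, 11 were lower (10 cytosolic, 1 mitochondrial) and 0 higher, against 7.7% of all genes lower and 9% higher. Groups did not overlap for 18 in the lower direction (12 cytosolic, 6 mitochondrial) and for 1, Qars, in the higher one, against 22.3% and 21.9%. The cytosolic median was -0.22 without imatinib array 2, and the mitochondrial one -0.31 without imatinib array 1.

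Rars was lower than in vector by a change of -0.36 (SE 0.08, adjusted p = 0.193), the smallest p of the enzymes here. Eprs read 10.57 on both imatinib arrays, 11.17 and 10.98 in vector, and 10.98 and 11.15 in BCR/ABL, a change of -0.51 (SE 0.12, adjusted p = 0.199). The change was -0.23 with its 4 probe sets averaged. The dimmest, with a mean deposited intensity of 18.4, was at 0.50, and the others were at -0.51, -0.48 and -0.42. Vector and BCR/ABL arrays of Eprs could not be separated, and both imatinib arrays lay under them. Mars1 (-0.46, adjusted p = 0.201) and Farsb (-0.45, adjusted p = 0.209) were next.

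Iars stood at 11.18 and 11.14 with imatinib, 11.58 on both vector arrays, and 11.59 and 11.83 in BCR/ABL, a change from vector of -0.42 (SE 0.11, adjusted p = 0.219). Wars was at -0.43 (SE 0.14, adjusted p = 0.278). Vars, the valine enzyme, had the lowest cytosolic change, -0.58 (SE 0.23, adjusted p = 0.356), with deposited intensities of 348 and 301 under imatinib, 499 and 423 in vector, and 482 and 397 in BCR/ABL. Eprs, Iars and Vars differed between vector and BCR/ABL by 0.13 or less in size and had their lowest values on the imatinib arrays, whereas Sars, Farsa and Nars were higher on the BCR/ABL arrays and near vector with imatinib (0.08, -0.09 and -0.05). The difference between these patterns was not tested, and Eprs, Iars, Vars, Sars, Farsa and Nars were set side by side after their values were seen.

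Cars (0.11), Qars (0.11) and Sars (0.08) were the cytosolic enzymes with higher values than in vector, none past the test. Tars2 was at -0.64 (SE 0.19, adjusted p = 0.262), Yars2 at -0.52 (SE 0.22), Rars2 at -0.27 (SE 0.14) and Mars2 at -0.80 (SE 0.35), for which both imatinib arrays lay below vector arrays of 7.68 and 8.24. Without vector array 2, Rars2 was at -0.15 and Mars2 at -0.51. Mitochondrial enzymes with the highest values against vector were Wars2 (0.46, SE 0.49), Fars2 (0.16, SE 0.20) and Aars2 (0.13, SE 0.28), and their groups overlapped. Each of these 3 signs turned without 1 array, with Wars2 at -0.02 without imatinib array 2, Fars2 at -0.02 without vector array 1, and Aars2 at -0.06 without imatinib array 1 or -0.04 without vector array 2. The other probe sets of Wars2 and Fars2, each of nearly the same brightness, were lower than in vector, at -0.66 and -0.47. Fars2, for phenylalanine, stood at 9.22 and 9.23 with imatinib, 8.88 and 9.24 in vector, and 9.29 and 9.20 in BCR/ABL.

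Across all 6 arrays, both imatinib arrays lay below the other 4 for 18 of 35 enzymes (12 cytosolic, 6 mitochondrial), against 13.3% of all genes. Group means were in the order BCR/ABL, vector, imatinib from high to low for 22 of 35 enzymes, 14 of them cytosolic, against 3417 of 18193 genes. The median cytosolic level, after centring each gene on its mean over the arrays, was 0.26 and 0.28 in BCR/ABL, 0.01 and 0.00 in vector, and -0.22 and -0.34 with imatinib. For the mitochondrial enzymes the BCR/ABL arrays stood at 0.18 and 0.26, the vector arrays at -0.07 and 0.09 and the imatinib arrays at -0.17 and -0.29. On the cytosolic median the replicate arrays of a group were closer to each other than to another group. On the mitochondrial median the groups did not overlap, but vector array 2 lay closer to a BCR/ABL array than to vector array 1.

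Proteins that work with the synthetases were counted from lists chosen with earlier results of these data known. Of the 3 scaffolds of the multisynthetase complex, Aimp2 and Eef1e1 were lower with imatinib than in BCR/ABL by changes of -0.80 (SE 0.10, adjusted p = 0.108) and -0.86 (SE 0.14, adjusted p = 0.113). Aimp2 levels were 11.83 and 11.85 in BCR/ABL, 10.93 and 11.15 with imatinib, and 11.60 and 11.59 in vector. Eef1e1 read 11.41 and 11.19, 10.42 and 10.47, and 11.08 and 10.85 in that order. Both scaffolds had their lowest arrays under imatinib, and their changes against vector were -0.55 (adjusted p = 0.150) and -0.52 (adjusted p = 0.223). In BCR/ABL against vector, Eef1e1 was at 0.34, Aimp2 at 0.25 and Aimp1 at 0.12. In imatinib against BCR/ABL, Aimp1 was at -0.07 (adjusted p = 0.803), with all 6 arrays between 11.63 and 11.85.

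Relatives and accessory factors of aminoacylation were measured for 14 of 17 genes, and 12 were lower with imatinib than in BCR/ABL, with a median of -0.29 and 0 past the adjusted test. Xpot, which exports tRNA from the nucleus, was at -0.52 (SE 0.12, adjusted p = 0.158), Aarsd1, an editing protein for misacylated alanine tRNA, at -0.81, Elac2, which trims the 3′ end of tRNA precursors, at -0.67, and Qrsl1, a subunit of the mitochondrial glutaminyl tRNA amidotransferase, at -0.72. These 4 of 14 were the ones at an unadjusted limma p under 0.05, against 9.13% of all genes. In BCR/ABL against vector, 12 of 14 were higher with a median of 0.20. The smallest p there were those of Sepsecs, which makes selenocysteinyl tRNA (-0.68), Tarsl2, a threonyl synthetase relative (0.30), Dtd2, a proofreading deacylase (1.44, SE 0.80), and Gatc, a subunit of the mitochondrial amidotransferase (0.53). In imatinib against vector they were those of Aarsd1 (-0.62), Xpot (-0.34), Qrsl1 (-0.62) and Gatb, another amidotransferase subunit (-0.61).

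Elongation and initiation factors were measured for 11 of 13 genes, of which 7 were lower with imatinib, with a median of -0.17. The lowest p were those of Tufm (-0.85, SE 0.15, adjusted p = 0.121), Eif2s2 (-0.20), Gfm1 (-0.64) and Tsfm (-0.95). Tufm, Gfm1 and Tsfm are elongation factors of mitochondrial translation, and Eif2s2 is a subunit of the factor that brings initiator tRNA to the ribosome. Eef1a1, which delivers charged tRNA to cytosolic ribosomes, was at 0.03, with all 6 arrays between 13.34 and 13.42. In BCR/ABL against vector, the smallest p were those of Eif5 (-0.16), Eif2s2 (0.13), Gfm1 (0.36) and Tsfm (0.56). In imatinib against vector they were those of Tufm (-0.77, adjusted p = 0.159), Gfm1 (-0.28), Eif2s2 (-0.08) and Eef2 (0.09). No factor passed the adjusted test in any comparison.

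Genes of the amino acid response were measured for 22 of 23. In BCR/ABL, 21 of 22 were higher than in vector with a median of 0.64, and 13 of them at an unadjusted limma p under 0.05, against 7.16% of all genes. With imatinib 19 of 22 were lower than in BCR/ABL with a median of -0.54. At an unadjusted limma p under 0.05, 11 were lower and 2 higher (9.13% and 7.88% of all genes). The adjusted test was passed by 0 in either comparison. In imatinib against vector 11 of the 22 were lower and 11 higher, with a median of -0.00, where the cytosolic synthetases had a median of -0.34. Atf4 read 12.33 and 12.32 in BCR/ABL, 11.94 and 11.89 with imatinib, and 11.98 and 11.95 in vector. Its changes were 0.36 (SE 0.07, adjusted p = 0.221) for BCR/ABL and -0.41 (SE 0.07, adjusted p = 0.121) for imatinib, and the imatinib arrays lay beside the vector arrays.

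Mthfd2, a mitochondrial folate enzyme, had the lowest p of the list with imatinib, at -1.25 (SE 0.20, adjusted p = 0.117), and Phgdh, the first enzyme of serine synthesis, was at -0.47 (SE 0.10, adjusted p = 0.136). In BCR/ABL against vector the lowest p were those of Trib3 (1.98, adjusted p = 0.191), the cystine carrier Slc7a11 (2.44, adjusted p = 0.211), Atf4 and Slc3a2 (0.79, adjusted p = 0.248). Trib3 stood at 7.92 and 7.42 in BCR/ABL, 5.65 and 5.72 in vector, and 6.96 and 7.01 with imatinib. The imatinib arrays of Trib3 were thus between the other groups.

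Ddit3, a stress transcription factor, and Ddit4, an inhibitor of mTORC1, had the opposite direction with imatinib. Ddit3 read 10.14 and 10.13 with imatinib, 8.95 and 8.79 in BCR/ABL, and 8.15 and 8.81 in vector, a change of 1.27 (SE 0.26, adjusted p = 0.132). Ddit4 was at 1.28 (SE 0.35, adjusted p = 0.186), with 12.91 and 12.69 against 12.06 and 10.99. Imatinib arrays of both genes were the highest of the 6. In imatinib against vector the smallest p of the list were those of Ddit3 (1.66, adjusted p = 0.127), Ddit4 (2.14, adjusted p = 0.135), Aldh18a1, an enzyme of proline synthesis (-0.62, adjusted p = 0.193), and Trib3 (1.30, adjusted p = 0.243).

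**Figure D5:**
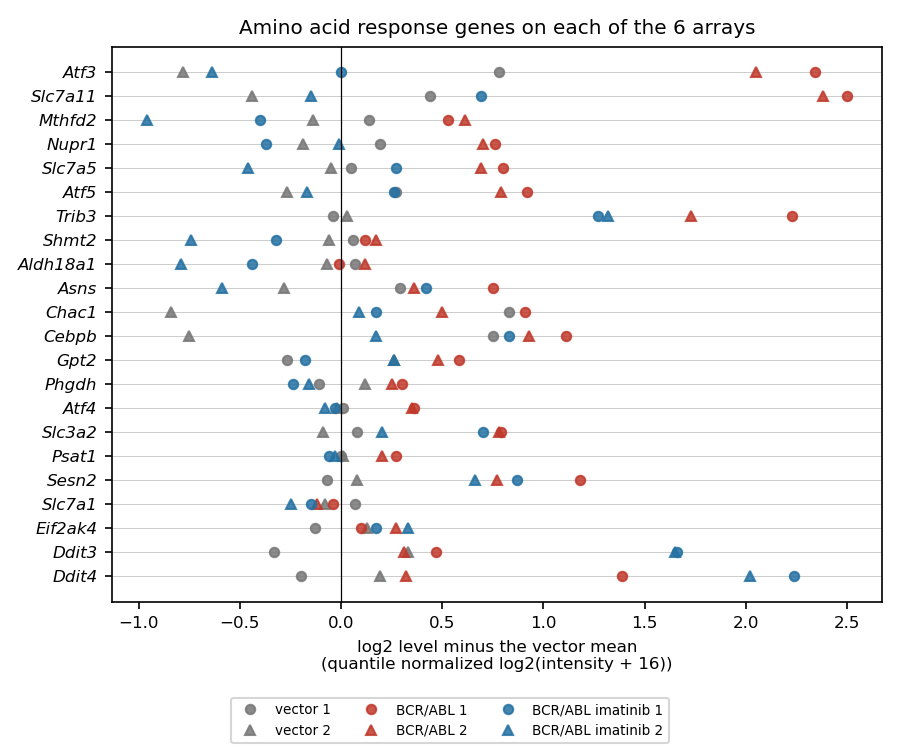
Log2 level of 22 amino acid response genes on each of the 6 arrays minus the mean of the vector arrays (horizontal axis, log2 units). Red BCR/ABL points lie to the right of 0 for most genes, and for Ddit3 and Ddit4 the blue imatinib points lie to the right of the red ones.

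The list for the MYC network held 8 selected genes, and all were measured. With imatinib 2 were lower and 6 higher than in BCR/ABL, with a median of 0.32 and 0 past the adjusted test. The MAX partners Mxi1 (0.57, SE 0.09, adjusted p = 0.118) and Mxd4 (1.49, SE 0.28, adjusted p = 0.121), which repress at E-boxes, were higher, Mlx was at -0.60 and Max at 0.25. Mxd1, another repressing MAX partner, had the smallest p of the list in both comparisons with vector. It read 11.04 and 11.21 in BCR/ABL, 11.60 and 11.42 with imatinib, and 10.25 and 9.98 in vector. Its changes against vector were 1.01 in BCR/ABL (SE 0.14, adjusted p = 0.118) and 1.40 with imatinib (SE 0.14, adjusted p = 0.0805), and the 3 groups did not overlap. In BCR/ABL against vector, Mlx (0.46), Mxi1 (-0.24) and Mycn (-0.40) followed, and in imatinib against vector Mxd4 (1.15), Mxi1 (0.33) and Mnt (0.32). Myc was nearly level, at 11.30 and 11.21 in BCR/ABL, 11.08 and 11.15 with imatinib, and 11.14 and 11.17 in vector, a change of -0.15 with imatinib (adjusted p = 0.568).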

How the data were processed

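The authors deposited 1 array intensity per probe set on a linear scale, made with Affymetrix Expression Console and MAS5 per the submitters' processing notes. Each deposited array had nearly the same trimmed mean, with medians of 5.69 to 6.19 on the log2 scale after adding 16. The series' text names a whole-transcript array, but the probe set identifiers and their annotation are those of an older mouse 3′ expression array, as which the values were used. From these intensities log2(value + 16) was computed, quantile normalized over all probe sets but 64 controls, and fitted over the 6 arrays with limma 3.58.1 (R 4.3.3; lmFit, eBayes with a trend) over 35877 probe sets with a gene symbol. P-values were adjusted by Benjamini-Hochberg, two-sided, with a threshold of 0.05. The fit was tried on simulated data, with changes added to the BCR/ABL group that were larger than those of most synthetases. Recovery of changes as small as theirs was not tested. The number of arrays limits precision. No detection calls were used.

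In each comparison the 6 cytosolic and 4 mitochondrial enzymes with the smallest p, up to 3 per compartment against the median's sign, and the 4 smallest p of each other list were named. Members and lists were chosen with earlier results of these data known. Other constants, scalings, filters, variance priors, a replicate block, averaged probe sets and each array left out were tried.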

Additional observations from a re-analysis of the deposited data

How the results depend on the processing

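Over 17 settings, 31 to 35 of the 35 synthetases were lower with imatinib than in BCR/ABL, while calls over all probe sets ran from 0 to 298 for BCR/ABL against vector, 0 to 1200 for imatinib against BCR/ABL and 0 to 275 for imatinib against vector (22, 0 and 16 as reported). In imatinib against BCR/ABL, 1 synthetase (Tars) passed with probe sets above the 30th percentile, along with 0.565% of all probe sets tested there. Above the 50th, 2 (Rars and Tars) passed, along with 1.18% of probe sets. Fewer probe sets are tested under both filters. With array medians centred 14 passed (12 cytosolic, 2 mitochondrial), along with 3.34% of all probe sets, and the median of all genes was -0.27. Relative to that shift the cytosolic and mitochondrial medians were -0.65 and -0.35. With medians centred, the cytosolic median was 0.48 for BCR/ABL against vector, -0.92 for imatinib against BCR/ABL and -0.50 for imatinib against vector, and the mitochondrial one 0.40 and -0.63 in the first 2. The first cytosolic median was 0.25 with the constant 64. The mitochondrial median under imatinib was -0.30 with the deposited scaling and -0.52 with probe sets averaged, where the cytosolic ones were -0.59 and -0.57.

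Leaving out 1 array at a time gave cytosolic medians of 0.21 to 0.30, -0.64 to -0.50 and -0.39 to -0.22 in the order BCR/ABL against vector, imatinib against BCR/ABL and imatinib against vector, and mitochondrial medians of 0.15 to 0.31, -0.53 to -0.29 and -0.31 to -0.17. The mitochondrial median for BCR/ABL against vector was 0.31 without vector replicate 2 and 0.29 without BCR/ABL replicate 1, the cytosolic one for imatinib against vector -0.22 without imatinib replicate 2, and the mitochondrial one -0.31 without imatinib replicate 1. Same-numbered arrays of each pair of groups deviated from their group means with correlations of -0.08, 0.15 and 0.16 and are taken to share only a number. The replicate block called 0 synthetases in each comparison, with smallest adjusted limma p of 0.24, 0.145 and 0.24, and 22, 0 and 9 probe sets in all.

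Single genes near 0 changed sign. In BCR/ABL against vector, Eprs was 0.22 with medians centred, 0.01 with the deposited scaling and 0.02 with probe sets averaged, and ran from -0.11 to 0.08 without an array in turn. Vars was 0.14 with medians centred, and Vars2 was 0.05 so and 0.00 with probe sets averaged, which gave -0.30 for Farsa. Without an array in turn, Vars ran from -0.17 to 0.08, Vars2 from -0.25 to 0.19 and Sars2 from -0.34 to 0.06. In imatinib against BCR/ABL, Qars was -0.29 with medians centred. In imatinib against vector, Qars was -0.06 and Sars -0.03 with medians centred, and Cars was -0.06, Fars2 -0.16 and Wars2 -0.10 with probe sets averaged. Without an array in turn, Aars2 ran from -0.06 to 0.32, Cars from -0.31 to 0.54, Fars2 from -0.02 to 0.34, Sars from -0.08 to 0.23 and Wars2 from -0.02 to 0.94. Beyond what a setting itself removes, the cause was not tested.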
